A study of Mus musculus with 21 samples.

Results

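The genes described here encode 9 enzymes or enzyme subunits of the tricarboxylic acid (TCA) cycle: Cs, Idh2, Idh3a, Idh3b, Idh3g, Ogdh, Suclg1, Fh1 and Mdh2. They were chosen by symbol from the 53738 gene symbols of a table of transcript abundances in mouse quadriceps muscle, and all 9 were found and passed the filter on low values. Only 1 of them, Idh2, was called changed in any comparison of exercised muscle. Idh2 transcripts fell to 65.4 TPM 6 h after exercise in untrained muscle, from 118 TPM in sedentary muscle.

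The TCA cycle runs in the mitochondrial matrix, where it oxidises acetyl groups from carbohydrate and fat to carbon dioxide and passes the electrons to the respiratory chain. In skeletal muscle the flux through the cycle rises steeply during exercise, and the activity of citrate synthase is widely used as a measure of mitochondrial content. Transcript levels were measured here, not enzyme activity or flux.

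Bulk RNA-seq of the quadriceps of wild-type male C57/Bl6 mice was available for 7 groups with 3 libraries each. Sedentary mice neither trained nor ran. Untrained mice ran a single exhaustive treadmill bout and were killed immediately (0 h), 6 h or 72 h later, and trained mice did the same after 12 weeks of voluntary wheel running. There was no group of trained mice without the bout, so in trained muscle the effect of the training period and that of the bout cannot be told apart by comparison with sedentary mice. Fewer cells of a type and less RNA per cell cannot be told apart in bulk tissue either.

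Values are TPM, a measure of transcript abundance that corrects for transcript length and gives each library the same total, so that levels can be compared between genes. Depth is not recoverable from TPM, so errors are given as the spread over libraries. The first replicate of the untrained and of the trained 0 h group held the same values in every row, so the table held 20 distinct libraries. This library was left out of both 0 h groups, which leaves 19 libraries in the fit and n = 2 in each 0 h group. Its values are given separately. The 5 muscle fibre genes checked (Acta1, Ckm, Mb, Myh4 and Tnnt3) summed to between 49006 and 66033 TPM per library. Genes of other cell types were present as well. Dcn of fibro-adipogenic cells lay between 118 and 333 TPM, and Hba-a1 of red blood cells between 76.7 and 272 TPM. Pax7, the defining gene of satellite cells, stayed at or below 0.346 TPM, while Cdh15 of the same list lay between 2.30 and 3.98 TPM. Transcripts of the mitochondrial genome took between 37.7% and 48.0% of a library, and all TPM values are relative to that share.

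**Figure D1:**
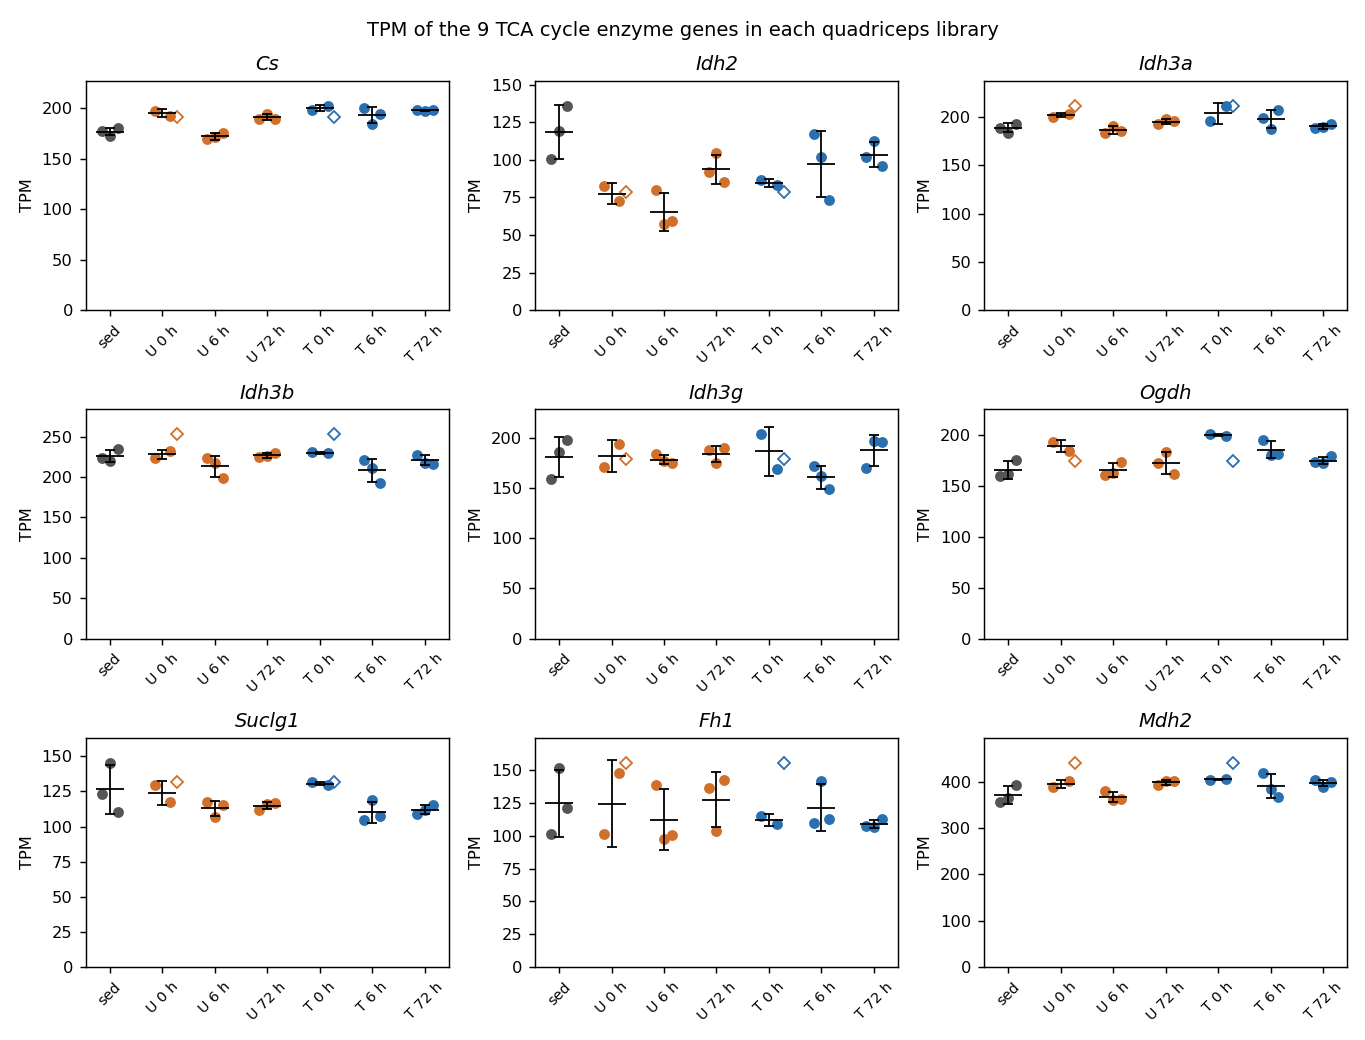
TPM of each of the 9 genes (vertical axis, from 0, 1 panel per gene) in sedentary (sed), untrained (U) and trained (T) muscle, with the hours after the bout on the horizontal axis. Filled points are libraries, black bars the group mean with its SD, and open diamonds the library held in identical columns by both 0 h groups, which entered neither mean. Idh2 ranged from 57.2 to 136 TPM, while Idh3a stayed between 183 and 211 TPM in the filled points.

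The abundance of the 9 transcripts in sedentary muscle spanned from Idh2 at 118 TPM ± 17.9 (SD, n = 3) to Mdh2 at 371 TPM ± 19.0 (SD, n = 3). Mdh2, the malate dehydrogenase that closes the cycle, stood above all others, and its 3 libraries did not overlap those of Idh3b at 226 TPM ± 7.64 (SD, n = 3), the next in order. Idh3a followed at 189 TPM ± 4.64, Idh3g at 181 TPM ± 19.9, Cs at 177 TPM ± 3.59 and Ogdh at 166 TPM ± 9.01 (SD, n = 3 each). Each of these 4 overlapped its neighbour, so their order is not resolved by the spread. Below a gap came Suclg1 at 126 TPM ± 17.7, Fh1 at 125 TPM ± 25.4 and Idh2, whose libraries overlapped one another. Mdh2 had the highest and Idh2 the lowest mean in each of the 7 groups.

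The genes differed in how stable they were. Over the 19 libraries, Idh3a had a coefficient of variation of 4.0%, Mdh2 of 4.67%, Idh3b of 4.88% and Cs of 5.79%. Of the 585 tested genes with a mean at least as high as that of Idh2, only 3 had a smaller SD on the log2 scale than Idh3a. Fh1 varied by 15.3% and Idh2 by 22.1%, and 485 of the 585 genes were less variable than Idh2. Differences between groups held 90.4% of the sum of squares on the log2 scale for Cs, 76.5% for Ogdh and 71.2% for Idh2. They held 63.2% for Idh3a, 57.6% for Mdh2, 52.7% for Suclg1, 52.4% for Idh3b, 37.2% for Idh3g and 14.9% for Fh1. With 7 groups and 19 libraries, part of this share arises without any difference between groups. It was not computed over all tested genes.

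A moderated F test over all 7 groups (limma, Benjamini-Hochberg adjustment over 11822 genes) called 3 of the 9 genes. These were Cs with an adjusted p of 0.0054, Idh2 with 0.0248 and Ogdh with 0.0255. Over all tested genes 26.0% were called by this test. The adjusted p of the other 6 genes lay between 0.206 for Suclg1 and 0.898 for Fh1.

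Idh2 encodes the NADP-dependent isocitrate dehydrogenase of the mitochondrial matrix, a source of mitochondrial NADPH. The gene lies on the minus strand of chromosome 7 at 79741431 to 79765535 (GRCm39). In sedentary muscle its transcripts were at 100.3, 119 and 136 TPM. In untrained muscle they were at 72.8 and 82.4 TPM at 0 h, at 79.8, 57.2 and 59.2 TPM at 6 h, and at 91.7, 104 and 85.4 TPM at 72 h. Trained muscle gave 86.4 and 83.0 TPM at 0 h, 117, 102 and 73.4 TPM at 6 h, and 102, 112 and 95.9 TPM at 72 h. The library shared by both 0 h columns was at 78.4 TPM. Every library at 0 h and every untrained library at 6 h lay below all sedentary libraries, while the trained libraries at 6 h spread over both ranges.

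Compared to sedentary muscle, Idh2 fell by 0.86 on the log2 scale in untrained muscle at 6 h (SE 0.17, 95% interval -1.22 to -0.50, limma adjusted p = 0.00497), with 3 of 3 libraries lower. It was the only one of the 9 genes called in this comparison, where 4.22% of all tested genes were called and 0.837% were called lower. A gene was called when its adjusted p was below 0.05 and its fold change at least 1.5-fold. The call was lost (adjusted p = 0.076) when only the sedentary and untrained 6 h libraries entered the model, and the range over the other alternatives was 0.00183 to 0.0263.

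At 0 h the Idh2 difference from sedentary muscle was -0.60 in untrained (SE 0.19, adjusted p = 0.103) and -0.47 in trained muscle (SE 0.19, adjusted p = 0.164), neither of which passed. With the shared library kept in both groups, the untrained difference at 0 h was -0.59 with an adjusted p of 0.0317 and was called. At 6 h in trained muscle it was -0.30 (95% interval -0.66 to 0.06, adjusted p = 0.294). At 72 h it was -0.33 in untrained (95% interval -0.69 to 0.03) and -0.19 in trained muscle (95% interval -0.55 to 0.17). All 6 differences were negative, also under both other scalings, and the 6 comparisons share the sedentary libraries.

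Slow fibre marker genes were lower in some of the groups in which Idh2 was lower. The 6 genes of the list (Myh7, Myl2, Tnnt1, Tnni1, Tnnc1 and Atp2a2) summed to between 368 and 759 TPM in sedentary muscle and to between 181 and 293 TPM in untrained muscle at 6 h, without overlap. Tnnt1, the slow skeletal troponin T, was called lower at 6 h in untrained muscle (log2 fold change -1.30, SE 0.38, adjusted p = 0.047), and 5 of the 6 had an unadjusted p below 0.05. In trained muscle at 6 h the sum was between 303 and 968 TPM. Across the 19 libraries, which share the TPM total, Pearson's r between Idh2 and this sum was 0.50 on the log2 scale, and it was 0.19 after the group means were removed. At 0 h in untrained muscle both the sum, at 181 and 297 TPM, and Idh2 lay below all sedentary libraries. At 72 h in untrained muscle the sum, between 240 and 355 TPM, lay below them as well, while Idh2 overlapped them. At 0 h in trained muscle Idh2 was low while the sum, at 339 and 522 TPM, lay within the sedentary range or just under it. At 72 h in trained muscle the sum, between 220 and 334 TPM, lay below all sedentary libraries, while Idh2 overlapped them. Of 5 macrophage markers, 4 were tested, since Adgre1 averaged below 1 TPM. Among these, Cd68 (1.62, adjusted p = 0.000202) and Csf1r (0.61, adjusted p = 0.0298) were called higher in untrained muscle at 6 h than in sedentary muscle, while C1qa (0.30, adjusted p = 0.523) and Mrc1 (-0.04, adjusted p = 0.949) did not pass. Adgre1 was at 0.678 against 0.725 TPM in sedentary muscle. The part of the slow fibre and macrophage markers in the Idh2 difference was not tested.

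**Figure D2:**
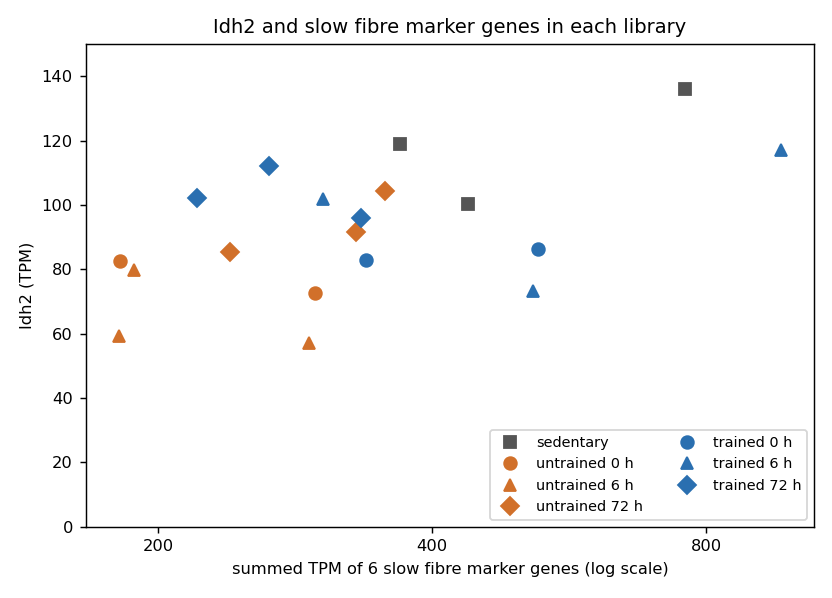
Idh2 in TPM (vertical axis) against the summed TPM of 6 slow fibre marker genes (horizontal axis, log scale) in the 19 libraries of the fit. Colours are sedentary (grey), untrained (orange) and trained (blue) muscle, and shapes the time after the bout. The untrained 6 h libraries sit between 181 and 293 TPM on the horizontal axis and at or below 79.8 TPM of Idh2.

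Exons of Idh2 share 29.4% of their bases with Zfp710 on the opposite strand. The library kit does not mark strand, so reads from these bases cannot be told apart. Zfp710 was at 5.95 TPM ± 0.586 in sedentary and 4.74 TPM ± 0.46 in untrained muscle at 6 h (SD, n = 3 each).

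Cs encodes citrate synthase, which joins acetyl-CoA and oxaloacetate at the entry of the cycle, and lies on the plus strand of chromosome 10 at 128172837 to 128198363. Cs transcripts were at 177, 173 and 179.9 TPM in sedentary muscle. In untrained muscle they were at 198 and 192 TPM at 0 h, 169, 171 and 176 TPM at 6 h, and 189, 195 and 189 TPM at 72 h. In trained muscle they were at 198 and 202 TPM at 0 h, 199.96, 185 and 194 TPM at 6 h, and 198, 197 and 198 TPM at 72 h. The shared 0 h library was at 191 TPM. The sedentary and untrained 6 h libraries thus lay at or below 179.9 TPM, and the other 13 libraries of the fit at or above 185 TPM.

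The Cs differences were small against the threshold of 1.5-fold. In trained muscle at 0 h, Cs was higher than in sedentary muscle by 0.18 on the log2 scale (SE 0.04, limma adjusted p = 0.0268) and passed on the adjusted p alone. This difference was 0.04 after median-of-ratios scaling and 0.03 after rescaling without the mitochondrial genome and the 10 most abundant genes (adjusted p = 0.838 and 0.878). It also missed the threshold without sedentary replicate 1 (adjusted p = 0.0747) or 2 (0.0964), and without trained 0 h replicate 2 (0.11) or 3 (0.164). The mitochondrial genome took between 37.7% and 40.6% of the 0 h libraries and between 42.2% and 46.9% of the sedentary ones. The differences of 0.14 at 0 h in untrained muscle (adjusted p = 0.0915), 0.13 at 6 h in trained muscle (0.0506), 0.11 at 72 h in untrained muscle (0.764) and 0.16 at 72 h in trained muscle (0.0783) had unadjusted p values below 0.05 and did not pass. After rescaling, Cs passed on the adjusted p alone in trained muscle at 6 h (0.15, adjusted p = 0.0329) and 72 h (0.25, adjusted p = 0.0174), and at 6 h it also passed without trained 6 h replicate 2 (0.16, adjusted p = 0.0298). In untrained muscle at 6 h the difference was -0.04 (95% interval -0.12 to 0.04). Cs has 2 near copies in the annotation, Csl and the pseudogene Gm48254, with means of 0.0067 and 0.0442 TPM.

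Ogdh encodes the catalytic subunit of the oxoglutarate dehydrogenase complex, which makes succinyl-CoA, and lies on the plus strand of chromosome 11 at 6241551 to 6309233. Its transcripts were at 159.6, 162 and 176 TPM in sedentary muscle. In untrained muscle they were at 193 and 185 TPM at 0 h, 161, 163 and 174 TPM at 6 h, and 173, 183 and 161 TPM at 72 h. In trained muscle they were at 201 and 199.7 TPM at 0 h, 196, 181 and 181 TPM at 6 h, and 173, 172 and 179 TPM at 72 h. The 0 h libraries of the fit lay above all sedentary libraries, whereas the shared 0 h library, at 175 TPM, lay within their range.

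In trained muscle at 0 h, Ogdh was higher than in sedentary muscle by 0.27 on the log2 scale (SE 0.06, limma adjusted p = 0.0208) and passed on the adjusted p alone. It no longer passed after median-of-ratios scaling (0.13, adjusted p = 0.306), after rescaling (0.12, adjusted p = 0.418) or with the shared library kept (0.21, adjusted p = 0.0594). Leaving out sedentary replicate 1 (adjusted p = 0.0846) or 2 (0.0779), or trained 0 h replicate 2 (0.136) or 3 (0.098), had the same effect. With the replicate number as a block, the adjusted p was 0.0543 for Ogdh and 0.0536 for Cs. Differences of 0.19 at 0 h in untrained muscle (adjusted p = 0.128) and 0.16 at 6 h in trained muscle (adjusted p = 0.0826) did not pass either. The latter passed on the adjusted p alone after median-of-ratios scaling (0.19, adjusted p = 0.0289) and without sedentary replicate 3 (0.21, adjusted p = 0.0461).

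Idh3a, Idh3b and Idh3g encode the subunits of the NAD-dependent isocitrate dehydrogenase, of which Idh3a carries the catalytic site and the others regulate it. They lie on chromosome 9 at 54493575 to 54514730 (plus strand), chromosome 2 at 130121227 to 130126467 (minus strand) and chromosome X at 72820644 to 72830719 (minus strand). Over the 19 libraries Idh3a ranged from 183 to 211 TPM, Idh3b from 192 to 234 TPM and Idh3g from 149 to 204 TPM. None of the 3 was called, and the 6 differences of each from sedentary muscle lay between -0.02 and 0.11 for Idh3a, -0.12 and 0.03 for Idh3b and -0.17 and 0.05 for Idh3g. The 95% intervals of Idh3a reached from -0.11 to 0.22, so that a 1.5-fold change lay outside each of them. Those with an unadjusted p below 0.05 were Idh3a at 0 h in trained muscle (0.11, SE 0.05, adjusted p = 0.207), which turned to -0.03 and -0.04 under the other scalings, and Idh3b at 6 h in trained muscle (-0.12, SE 0.06, adjusted p = 0.195). Idh3g shares 27.9% of its exon bases with Srpk3 on the opposite strand, which had a mean of 12.8 TPM.

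Suclg1 encodes the alpha subunit shared by both forms of succinyl-CoA ligase, the enzyme of substrate-level phosphorylation in the cycle, and lies on the plus strand of chromosome 6 at 73225365 to 73253894. It ranged from 105 TPM in trained muscle at 6 h to 146 TPM in sedentary muscle. Its largest difference from sedentary muscle was -0.19 at 6 h in trained muscle (SE 0.08, adjusted p = 0.169), where the groups overlapped. It was -0.08 without sedentary replicate 2 (adjusted p = 0.516), and -0.28 without sedentary replicate 3, where it passed on the adjusted p alone (0.0406). It was not called in any comparison.

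Mdh2 lies on the plus strand of chromosome 5 at 135807292 to 135820882. It ranged from 356 to 419 TPM over the libraries of the fit, and the shared 0 h library was higher still at 442 TPM. Its largest difference from sedentary muscle was 0.13 at 0 h in trained muscle (SE 0.06, adjusted p = 0.199), which turned to -0.01 and -0.03 under the other scalings. All its 95% intervals against sedentary muscle lay between -0.12 and 0.25.

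Fh1 encodes fumarase, which hydrates fumarate to malate, and lies on the minus strand of chromosome 1 at 175425290 to 175453205. Its libraries fell on both sides of a gap between 121 and 136 TPM, within groups rather than between them. Fh1 was at 101, 152 and 121 TPM in sedentary muscle, at 101 and 148 TPM at 0 h, 139, 97.7 and 100.3 TPM at 6 h and 136, 103 and 143 TPM at 72 h in untrained muscle, and at 115 and 109 TPM at 0 h, 109.5, 142 and 113 TPM at 6 h and 108, 107 and 113 TPM at 72 h in trained muscle. The shared 0 h library was the highest at 156 TPM. In all, 6 libraries of the fit, from 5 groups, lay above the gap and 13 below it. No comparison of Fh1 had an unadjusted p below 0.05, and its 95% intervals against sedentary muscle reached from -0.58 to 0.44, the widest among the genes other than Idh2.

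**Figure D3:**
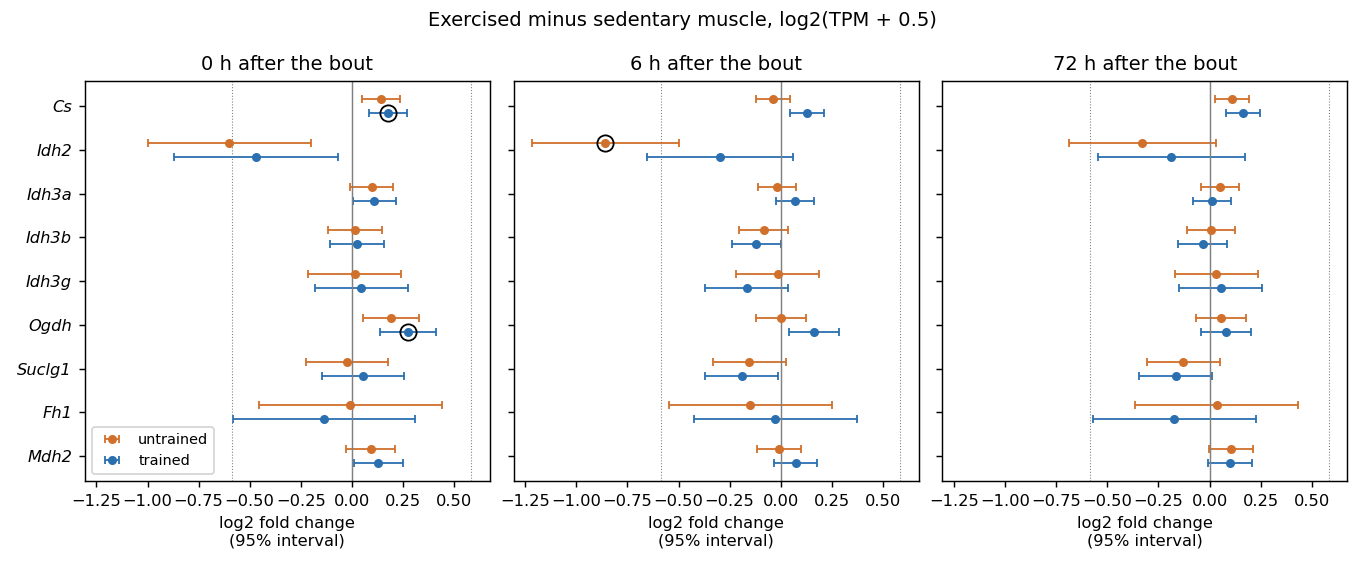
Log2 fold change of each gene against sedentary muscle (horizontal axis) with its 95% interval, for untrained (orange) and trained (blue) muscle, 1 panel per time. Dotted lines mark 1.5-fold, and black rings an adjusted p below 0.05. Idh2 lies left of 0 in every panel, with -0.86 in untrained muscle at 6 h, and the other genes lie between -0.19 and 0.27.

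Counted over all genes, the share called against sedentary muscle was 2.89% at 0 h, 4.22% at 6 h and 0.00846% at 72 h in untrained muscle, and 3.21% at 0 h, 3.81% at 6 h and 0.245% at 72 h in trained muscle. Apart from Idh2 at 6 h in untrained muscle, 0 of the 9 genes were called by limma in these comparisons. The numbers of the 9 with an unadjusted p below 0.05 were 3, 1 and 1 in order of time for untrained muscle, beside 17.5%, 22.1% and 6.06% of all tested genes. They were 5, 4 and 1 for trained muscle, beside 21.8%, 25.2% and 12.8% of all tested genes. On the adjusted p alone, Cs and Ogdh were 2 of 9 genes higher in trained muscle at 0 h, where this held for 5.16% of all tested genes. The median log2 fold change of the 9 genes was 0.06 in that comparison, beside 0.12 over all tested genes, and it turned to -0.09 after median-of-ratios scaling, which moved the median of all genes by -0.125. In untrained muscle at 6 h the median of the 9 was -0.04 and that of all genes 0.01.

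The direct comparison of trained with untrained muscle asks whether the levels of these transcripts after exhaustive running differed with training. The bout was a maximal capacity test, in which the speed was raised in steps until each mouse's exhaustion. The paper reports better performance of trained mice in these tests. The length and speed of the bout therefore cannot be told apart from training. The limma test called 0 of the 9 genes at 0 h, where 0% of all tested genes were called, and 0 at 6 h, at 72 h and for the average of the times, where 1.93%, 0.364% and 0.381% were called. The numbers with an unadjusted p below 0.05 were 0, 3, 0 and 3, beside 4.46%, 19.1%, 16.3% and 17.2% of all tested genes. At 6 h these were Cs, Idh2 and Ogdh, and each was higher in trained muscle.

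Cs was higher in trained than untrained muscle at 6 h by 0.17 on the log2 scale (SE 0.04, 95% interval 0.08 to 0.25, adjusted p = 0.0257), with 193 TPM ± 7.76 against 172 TPM ± 3.28 (SD, n = 3 each). The lowest trained library, at 185 TPM, stood above the highest untrained one, at 176 TPM. Cs was the only one of the 9 genes to pass on the adjusted p alone, in the direction of 1.81% of all tested genes. The difference was 0.20 and 0.26 under the other scalings and passed in both. It did not pass with only the libraries of those groups in the model (adjusted p = 0.396), without untrained 6 h replicate 2 (0.0822), or without trained 6 h replicate 1 (0.0982) or 3 (0.0757).

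Idh2 was 97.4 TPM ± 22.1 in trained and 65.4 TPM ± 12.5 in untrained muscle at 6 h (SD, n = 3 each), a difference of 0.56 (SE 0.17, 95% interval 0.20 to 0.92, adjusted p = 0.0727) that did not pass. Trained 6 h replicate 3, at 73.4 TPM, lay within the untrained range. Without it the difference was 0.75 and was called (adjusted p = 0.0215), without untrained 6 h replicate 1 it was 0.71 and was called (adjusted p = 0.0214), and after rescaling it was 0.65 and was called (adjusted p = 0.0486). With other single libraries left out, the difference went down to 0.42 and the adjusted p up to 0.245. The difference did not pass after median-of-ratios scaling (adjusted p = 0.0697) or with only the 6 h libraries in the model (adjusted p = 0.383). Macrophage markers moved the other way at 6 h, with Cd68 and Csf1r called lower in trained than untrained muscle and the sum of the 5 markers between 9.67 and 13.5 TPM against 13.9 and 28.5 TPM. Mb, the myoglobin gene of oxidative fibres, was called higher in trained muscle (0.73, adjusted p = 0.0218), while the other 4 muscle fibre genes and all 5 fast glycolytic fibre genes had negative values and did not pass. All 6 slow fibre genes were higher in trained than untrained muscle at 6 h, with a median log2 difference of 1.263. Each of the 6 had an unadjusted p below 0.05, while 0 were called by limma. The part of these markers in the differences of Cs, Idh2 and Ogdh at 6 h was not tested.

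Ogdh was higher by 0.16 at 6 h (SE 0.06, adjusted p = 0.123), which did not pass. It passed on the adjusted p alone after median-of-ratios scaling (0.20, adjusted p = 0.0357) and rescaling (0.26, adjusted p = 0.0175). With only the 6 h libraries in the model it did not pass (adjusted p = 0.424), and leaving out single libraries gave adjusted p values between 0.103 and 0.329. After rescaling, 8 of the 9 genes were positive in this comparison and 4 had an adjusted p below 0.05, against 6 and 1 with TPM as deposited. The mitochondrial genome took between 45.7% and 47.0% of the trained and between 40.6% and 43.7% of the untrained 6 h libraries. Averaged over the times, the differences were 0.08 for Cs (adjusted p = 0.0808), 0.28 for Idh2 (0.184) and 0.09 for Ogdh (0.2). After rescaling, those of Cs (0.14, adjusted p = 0.0123) and Ogdh (0.15, adjusted p = 0.0424) passed on the adjusted p alone. With TPM as deposited, the other 6 genes had unadjusted p values above 0.05 in all 4 comparisons of trained with untrained muscle. After rescaling, the difference of Idh3a at 6 h went from 0.09 to 0.18 (adjusted p = 0.00665), which made it the fourth of the genes that passed. Among the 6, the widest 95% intervals, those of Fh1, reached from -0.62 to 0.52.

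**Figure D4:**
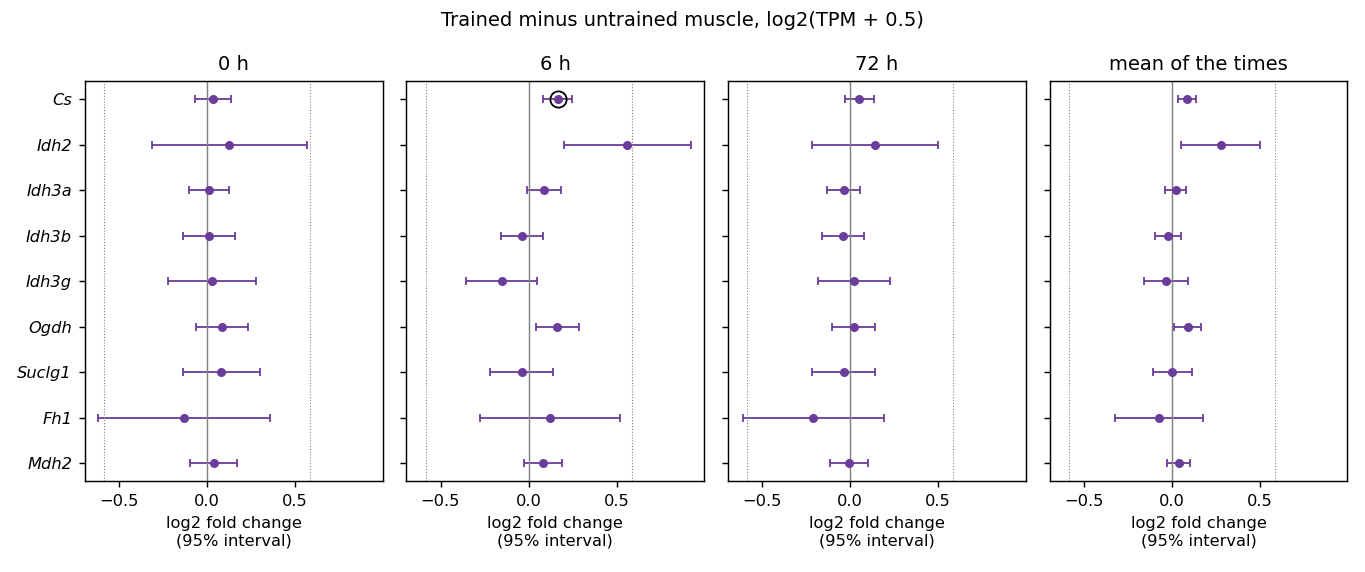
Log2 difference of trained minus untrained muscle for each gene (horizontal axis) with its 95% interval, at each time and averaged over the times. Dotted lines mark 1.5-fold, and the black ring marks the adjusted p below 0.05 of Cs at 6 h, with a difference of 0.17.

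**Figure D5:**
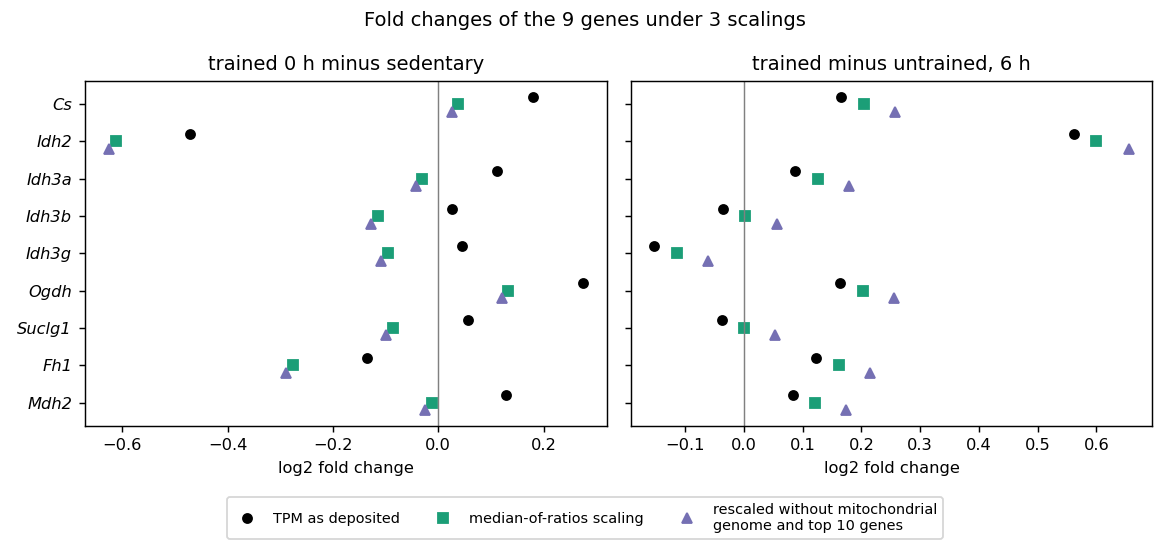
Log2 fold changes of the 9 genes (horizontal axis) in trained 0 h against sedentary muscle and in trained against untrained muscle at 6 h, with TPM as deposited (circles), median-of-ratios scaling (squares) and rescaling without the mitochondrial genome and the 10 most abundant genes (triangles). The other scalings move all 9 genes left in the first comparison, where Ogdh goes from 0.27 to 0.12, and right in the second, where Idh2 goes from 0.56 to 0.65.

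Ratios of paired enzymes within a library do not depend on how the library was scaled. The ratio of Idh2 to Idh3a, the mitochondrial NADP- and NAD-dependent isocitrate dehydrogenases, was 0.628 ± 0.0883 in sedentary muscle (SD, n = 3), 0.352 ± 0.0733 in untrained and 0.495 ± 0.123 in trained muscle at 6 h (SD, n = 3 each). Over the 3 times, the log2 ratio was higher in trained than untrained muscle by 0.26 (two-sided exact permutation test within times, p = 0.0358, adjusted p over 6 pairs = 0.215), which did not pass. Without trained 6 h replicate 3 the difference was 0.33 with an adjusted p of 0.045.

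The ratios between subunits of a complex are given as ranges of group means, and were not set against pairs drawn from all genes. The ratio of Idh3a to Idh3b had group means between 0.836 and 0.956, and that of Idh3b to Idh3g between 1.18 and 1.29. Ogdh stood at 2.43 to 2.63 times Dlst, the gene of the succinyltransferase in the same complex, and Suclg1 at 0.735 to 0.859 times Sucla2, the ATP-forming beta subunit. The trained minus untrained log2 differences were 0.04, 0.01, 0.05 and -0.05 for these 4 pairs, and -0.11 for Fh1 to Mdh2. Exact permutation p values of these 5 pairs lay between 0.085 and 0.833, none below 0.05.

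Of 10 genes for the remaining enzymes of the cycle, 9 were tested, since Ogdhl had a mean below 1 TPM, and 0 were called by limma in any of the 10 comparisons. Dlst was higher than in sedentary muscle on the adjusted p alone at 0 h in trained muscle (0.25, adjusted p = 0.0192) and at 6 h in trained muscle (0.23, adjusted p = 0.0112), the latter in a comparison where 5.91% of all tested genes were higher by this measure. The 0 h value fell to 0.11 and 0.10 under the other scalings and no longer passed.

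Around the cycle, 0 of 4 pyruvate dehydrogenase genes, 0 of 4 tested shuttle genes and 0 of 4 tested anaplerotic genes were called in any comparison. Idh1, the cytosolic counterpart of Idh2, was called higher in trained muscle at 6 h, at 8.65 against 5.48 TPM in sedentary muscle (log2 fold change 0.61, SE 0.16, adjusted p = 0.0286). Got1 and Got2, the aspartate aminotransferases of the malate-aspartate shuttle that share oxaloacetate with the cycle, were higher there by 0.49 (adjusted p = 0.000265) and 0.29 (adjusted p = 0.0132) on the adjusted p alone. Against untrained muscle at 6 h, both were also higher by this measure in trained muscle (0.35, limma adjusted p = 0.0047, and 0.25, 0.0486). So was Pdha1 of the pyruvate dehydrogenase complex (0.21, adjusted p = 0.0301), in a comparison where this held for 1.81% of all tested genes.

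Of 8 listed regulators of mitochondrial genes, 1 was called higher at 6 h in untrained and 3 in trained muscle. Ppargc1a, a coactivator of mitochondrial gene expression, rose from 3.90 TPM to 27.1 TPM in untrained (log2 fold change 2.65, SE 0.20, adjusted p = 2.03e-06) and 38.95 TPM in trained muscle (3.15, SE 0.20, adjusted p = 3.41e-06). Esrrg and Esrrb, estrogen-related receptors, were called higher in trained muscle at 6 h against sedentary muscle (1.41 and 0.80) and against untrained muscle (1.24 and 0.91). Esrrg was at 10.6 TPM in trained, 4.23 TPM in untrained and 3.67 TPM in sedentary muscle. On the adjusted p alone, Esrra was higher in trained muscle at 6 h against sedentary (0.36, limma adjusted p = 0.00188) and untrained muscle (0.235, adjusted p = 0.0379). By the same measure Esrrg was lower than in sedentary muscle at 0 h in untrained muscle (-0.54, adjusted p = 0.0352). The 9 enzymes summed to 1665 TPM ± 76.4 in trained and 1575 TPM ± 54.3 in untrained muscle at 6 h, against 1678 TPM ± 79.8 in sedentary muscle (SD, n = 3 each).

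Receptors and coactivators of this kind act on promoters, and 3 motifs were searched there on both strands. Windows reached from 250 bases before to 50 after the start of the transcript that the annotation marks as canonical. The estrogen-related receptor half-site AAGGTCA was in 0 of the 9 windows and in 3.66% of the windows of 9694 tested genes. The NRF1 core GCATGCG was in 0 of 9 and in 6.52% of all. The ETS and GABP core CCGGAAG was in 2 of 9, Idh3a and Mdh2, and in 16.6% of all, and it overlapped neither other motif. The stretches around these 2 matches (GRCm39, plus strand, chr9:54493502-54493574 and chr5:135807206-135807235) are shown with the match in capitals, which in Idh3a reads on the opposite strand:
Idh3a: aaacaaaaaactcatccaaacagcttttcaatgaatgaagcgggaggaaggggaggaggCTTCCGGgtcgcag
Mdh2: agcgctaggtcCCGGAAGtgggcaaagcta
The Idh3a match starts 51 bases before the start of the canonical transcript and the Mdh2 match 75 bases before it. In Idh3a this transcript starts downstream of the gene start given above, so the match lies closer to that gene start. In Mdh2 both starts are the same base. Neither gene was called in any comparison.

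The 9 genes did not vary as a block. Over the 19 libraries, which share the TPM total, Pearson's r between pairs on the log2 scale had a median of 0.18 over 36 pairs and reached from -0.24 for Ogdh with Fh1 to 0.76 for Cs with Ogdh. The next pairs were Cs with Mdh2 (0.76), Idh3a with Ogdh (0.70), Cs with Idh3a (0.69), Ogdh with Mdh2 (0.63), Idh3b with Mdh2 (0.56) and Idh3b with Idh3g (0.55). The genes outside all lists whose pattern over the libraries was most like the mean of the 9 standardised members were Ndufa9 (r = 0.87), Atp5c1 (0.86), Lgals4 (0.85), Tcaim (0.84), Mrps27 (0.84), Atp5k (0.83), Pmpcb (0.83), Jag2 (0.81), Cox4i1 (0.80) and Ndufs1 (0.80). Ndufa9 and Ndufs1 encode subunits of respiratory complex I, Cox4i1 of complex IV, and Atp5c1 and Atp5k of ATP synthase.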

How the data were processed

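RNA of bulk quadriceps from 7 groups of 3 libraries was sequenced with a kit that does not mark strand. The authors aligned reads to GRCm39 (STAR 2.7.9, per the submitters' processing notes), quantified them with salmon 1.5.0 and deposited TPM values per gene symbol. DESeq2 is listed there as well and its output was not used. All columns carried a group.

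TPM values were transformed to log2(TPM + 0.5). Genes averaging 1 TPM or more over the 19 libraries, 11822 in all, were fitted with limma 3.58.1 in R 4.3.3 (all 7 groups in 1 model, variance trend, 12 residual degrees of freedom), with Benjamini-Hochberg adjustment within each of 10 comparisons. Calls required an adjusted p below 0.05 together with a 1.5-fold change or more. Fold changes are on the log2(TPM + 0.5) scale, which understates changes of genes with low TPM. The code was tested on simulated data. Nothing in the labels says which libraries came from which animals, so p values measure the spread between these samples. Ratios were compared by exact permutation within times in Python 3.11.15 with scipy 1.17.1. Gene positions, exon overlaps and promoter sequences came from the GENCODE annotation of GRCm39. The median-of-ratios alternative divided each library by the median, over genes above 0 in all libraries, of its TPM relative to the gene's geometric mean, and the other rescaled TPM after leaving out the mitochondrial genome and the 10 most abundant genes. Further alternatives are given in the closing section.

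All 9 members are named. Fold changes with SE are printed where the unadjusted p was below 0.05, and listed genes are named where they were called or share a complex with a member. The members, lists and tests were chosen with earlier results of these data known. Got1, Got2, Pdha1, Esrra, Zfp710, Srpk3 and the marker genes named were chosen after their values were seen.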

Additional observations from a re-analysis of the deposited data

Results flagged for a closer look

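Cs differed between trained and untrained muscle at 6 h, by 0.17 on the log2 scale (limma adjusted p = 0.0257, higher in 3 of 3 trained libraries), in a direct test of that difference. The change is below the threshold of 1.5-fold. Leaving out each library of the 2 groups in turn gave adjusted p values between 0.0191 and 0.0982, above the threshold without untrained 6 h replicate 2 (0.0822), trained 6 h replicate 1 (0.0982) or trained 6 h replicate 3 (0.0757). The cause was not tested. Groups of 3 libraries are too small for a check for single libraries that stand apart.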

How the results depend on the processing

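The replicate block, with the replicate number in the model, gave the same 1 called gene (Idh2, -0.86, adjusted p = 0.00715) in untrained muscle at 6 h and left the counts of the other 9 comparisons at 0, while the F test over all groups called 2 members under it instead of 3. The numbers do not pair the libraries, since deviations of same-numbered libraries had a mean correlation of 0.00286 and none of 52 exceeded 0.1. Keeping the shared library moved the untrained 0 h count of called members from 0 to 1. Without the fold threshold the count was 2 in trained muscle at 0 h and 1 in trained against untrained muscle at 6 h. With only the compared groups in the model, the untrained 6 h count was 0. Rescaling without the mitochondrial genome and the top 10 genes gave 1 at 6 h in trained against untrained muscle, and 5 for the F test over all groups. Leaving out single libraries gave 0 to 1 for trained against untrained muscle at 6 h. In trained muscle at 0 h, 5 of the 9 members reversed under both median-of-ratios scaling and rescaling. These were Idh3a (-0.0305 and -0.043), Mdh2 (-0.0127 and -0.0252), Idh3b (-0.12 and -0.13), Idh3g (-0.10 and -0.11) and Suclg1 (-0.09 and -0.10), where these scalings shifted the median of all genes by -0.125 and -0.136. With single libraries left out, the trained minus untrained log2 ratio ranged from 0.21 to 0.33 for Idh2 to Idh3a, 0.0306 to 0.064 for Ogdh to Dlst and -0.0315 to 0.0547 for Idh3b to Idh3g, and 0 to 2 of the 6 pairs passed. The 3 reversed values of Idh3b to Idh3g were -0.0099, -0.0315 and -0.0196. Of the 337 values under alternatives of the 21 fold changes with an unadjusted p below 0.05, 325 kept their direction and call. Only 1 of the 21 was called, and a change below 1.5-fold stays uncalled whatever its adjusted p, so this count says little about them. In trained muscle at 0 h, Cs went from a limma adjusted p of 0.0268 to 0.838 after median-of-ratios scaling and counted as kept. Pseudocounts of 0.1 and 1 changed no count, and no filter on low values changed only that of the F test, to 2. The causes were not tested. With n = 2 at 0 h and depth unknown, even the Idh2 difference of -0.60 in untrained muscle at 0 h, above 1.5-fold, did not pass.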

Other observations

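The genes outside all lists most like Idh2 over the 19 libraries were Ldhb (r = 0.86), Dhrs4 (0.86), Fxyd6 (0.82), Pcp4l1 (0.80) and Echs1 (0.79). Next came Hadh (0.79), Coro6 (0.78), Emc9 (0.78), Acads (0.78) and Selenbp1 (0.77). They were chosen after the values of Idh2 were seen and are given as a description. Ldhb encodes the lactate dehydrogenase subunit of oxidative muscle and heart, and Echs1, Hadh and Acads are genes of fatty acid oxidation. Ldhb was at 93.6, 151 and 134 TPM in sedentary muscle and at 90.5, 69.3 and 64.3 TPM in untrained muscle at 6 h. In trained muscle at 6 h it was at 157, 125 and 114 TPM, above all untrained 6 h libraries. The libraries share the TPM total, and the genes are not independent of one another.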
